A study of Mus musculus with 6 samples.

Results

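The genes described here are those of the KIT ligand and receptor, the class I phosphoinositide 3-kinase (PI3K) they act through, the FOXO transcription factors that the kinase AKT keeps out of the nucleus, and the TSC complex, a second arm below AKT. They were taken by symbol from the deposited gene table: Kit, Kitl, Foxo1, Foxo3, Foxo4, Pik3ca, Pik3r1, Tsc1 and Tsc2, 9 of 19423 genes, with 51 of the 65091 listed transcripts. All libraries came from ovaries of balb/c-nude mice, an athymic and immunodeficient strain, labelled day 80. The 3 control libraries carry no injected cells in their labels. The 3 tumor libraries came from mice injected under the skin with a breast cancer line that the labels spell MBA-MD-231, and their treatment labels count its last number up by 1 from library to library with no change in the cell line label. The age of the mice, the stage of the estrous cycle and whether a library is 1 animal are details that the sources used here do not give, so the p-values below measure only the spread between these libraries, which may be technical.

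In the mouse ovary, most oocytes rest in primordial follicles and few are activated at a time. KIT ligand, made by granulosa cells, binds the receptor tyrosine kinase KIT on oocytes and on theca and interstitial cells. Active KIT recruits PI3K, whose lipid product switches on AKT. AKT phosphorylates FOXO3, which is then exported from the oocyte nucleus, and loss of nuclear FOXO3 lets a resting follicle start to grow. AKT also phosphorylates TSC2, which with TSC1 restrains the growth kinase complex mTORC1. In granulosa cells FOXO1 is the more abundant FOXO factor and is known to restrain proliferation and steroidogenic genes. RNA levels of these genes do not report phosphorylation or nuclear export.

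The Kit and Kitl genes each give a pair of forms that differ in a short piece of coding sequence, and these pieces are shown because the transcript values below turn on them. Kit (chr5:75574987-75656722, plus strand, GRCm38.p6) has an alternative donor site at the end of exon 9 that adds 12 bases, chr5:75639147-75639158, to the part of the receptor just outside the membrane. In the GENCODE M21 models of GRCm38 the form with these bases has 979 codons and the form without them 975. In the lines below, capitals mark the extra bases and lower case the joined exon ends, 5′ to 3′ on the coding strand.
Kit with the exon 9 extension: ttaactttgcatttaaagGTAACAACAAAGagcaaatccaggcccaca
Kit without the extension: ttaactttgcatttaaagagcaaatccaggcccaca

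Kitl (chr10:100015615-100100416, plus strand, GRCm38.p6) makes a form that keeps exon 6, which encodes the main site at which proteases release the soluble ligand, and a form that skips it and stays mostly on the cell surface. Exon 6 is the 84 bases at chr10:100080857-100080940, and the 2 coding models have 273 and 245 codons. Capitals mark exon 6 in the lines below, again 5′ to 3′ with the neighbouring exon ends in lower case. The form listed as NM_013598.3 matched a GENCODE transcript with exon 6 through an earlier version of its accession. The form NM_001347156.1 had no such match and was taken as the one without exon 6 from its length in the deposited values, which was 83.4 bases shorter (median over libraries).
Kitl with exon 6: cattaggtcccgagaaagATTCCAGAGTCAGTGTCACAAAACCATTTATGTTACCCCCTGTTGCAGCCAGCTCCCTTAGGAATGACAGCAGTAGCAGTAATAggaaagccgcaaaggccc
Kitl without exon 6: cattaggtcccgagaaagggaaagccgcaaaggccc

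Pik3r1 (chr13:101680761-101768217, minus strand, GRCm38.p6) encodes the regulatory subunits that hold the catalytic subunit p110 alpha, the product of Pik3ca. Transcription from an upstream start gives the long form p85 alpha, of 724 codons in 16 exons (NM_001077495.2). A start 75587 bases downstream gives a short form of 454 codons in 10 exons (NM_001024955.2) that lacks the amino-terminal domains of p85 alpha and keeps its SH2 domains. The 250 bases before each start are shown because the 2 forms are counted separately below. Both come from a RefSeq table of GRCm38.p6 and run 5′ to 3′ on the gene's strand. Capitals mark each match of the GC box, GGGCGG on either strand.
Pik3r1 upstream start, chr13:101768218-101768467: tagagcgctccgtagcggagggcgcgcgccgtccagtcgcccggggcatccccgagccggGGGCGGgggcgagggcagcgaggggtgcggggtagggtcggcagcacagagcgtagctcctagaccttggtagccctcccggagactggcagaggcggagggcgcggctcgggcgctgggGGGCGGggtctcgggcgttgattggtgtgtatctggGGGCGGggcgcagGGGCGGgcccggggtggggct
Pik3r1 downstream start, chr13:101692631-101692880: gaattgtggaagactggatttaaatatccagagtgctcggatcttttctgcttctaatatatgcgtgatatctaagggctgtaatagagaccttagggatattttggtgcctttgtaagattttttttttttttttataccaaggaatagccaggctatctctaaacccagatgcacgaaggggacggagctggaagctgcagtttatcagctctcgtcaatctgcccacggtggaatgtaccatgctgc

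In windows from 250 bases before to 50 after the start, the upstream window had 75.7% G and C, 34 CpG and 4 GC boxes, and the downstream window 43.7%, 6 CpG and no GC box. Over all 32851 windows in the table the medians were 52.7% and 7 CpG, and 35.7% held a GC box. Windows were listed for 8 of the 9 genes, 10 windows in all, and Foxo4 was not among them. GC boxes numbered 5 at Foxo1, 5 at Foxo3, 3 at Kitl, of which a pair overlapped, and 1 each at Pik3ca and in both overlapping Kit windows. The windows of Tsc1 and Tsc2 held none. None of the 10 windows held the FOXO site GTAAACA (3.65% of all windows), the STAT site TTCNNNGAA (8.30%) or the cAMP response element TGACGTCA (1.79%), each searched on both strands. Such matches describe letters in a window and do not show binding.

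The 6 libraries held between 18278614 and 19238900 estimated counts. Levels are given as CPM, counts relative to the TMM-scaled library total, and the tests are edgeR's quasi-likelihood F test over 15787 genes with Benjamini-Hochberg adjustment and a threshold of 0.05. Tumor replicate 1 was unlike its group: along the leading principal component it lay at -34.6, between control values of -42.8 to -5.2, while tumor replicates 2 and 3 lay at 49.6 and 75.1. It also had the highest summed level of 10 adipocyte markers, 9091 CPM, against 949 and 3913 in tumor replicates 2 and 3 and 629 to 853 in the controls. Oviduct markers summed to 531 to 2271 CPM in the controls and to 2062, 171 and 73.8 in tumor replicates 1 to 3.

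Of the 9 genes, Foxo1, Foxo3 and Pik3ca rose in the ovaries of tumor-bearing mice and none fell. For comparison, 3.80% of all genes tested rose, 3.91% fell and 7.71% changed in either direction. Fitted log2 fold changes were positive for 8 of the 9, with a median of 0.46 against -0.02 over all genes tested. The 3 tumor libraries lay entirely on one side of the 3 control libraries for 6 of the 9, all higher in tumor, where 19.8% of all genes did so upward and 38.1% in either direction. The plot of levels by library shows that Kit, Pik3r1 and Tsc2 were the 3 genes with overlapping groups. In the authors' deposited table, Foxo1, Foxo3, Pik3ca, Kit, Kitl and Tsc1, 6 of the 9, had a q-value under 0.05, as did 14.7% of the genes with a q-value there. The same 6 passed DESeq2 here, beside 19.1% of all genes.

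**Figure D1:**
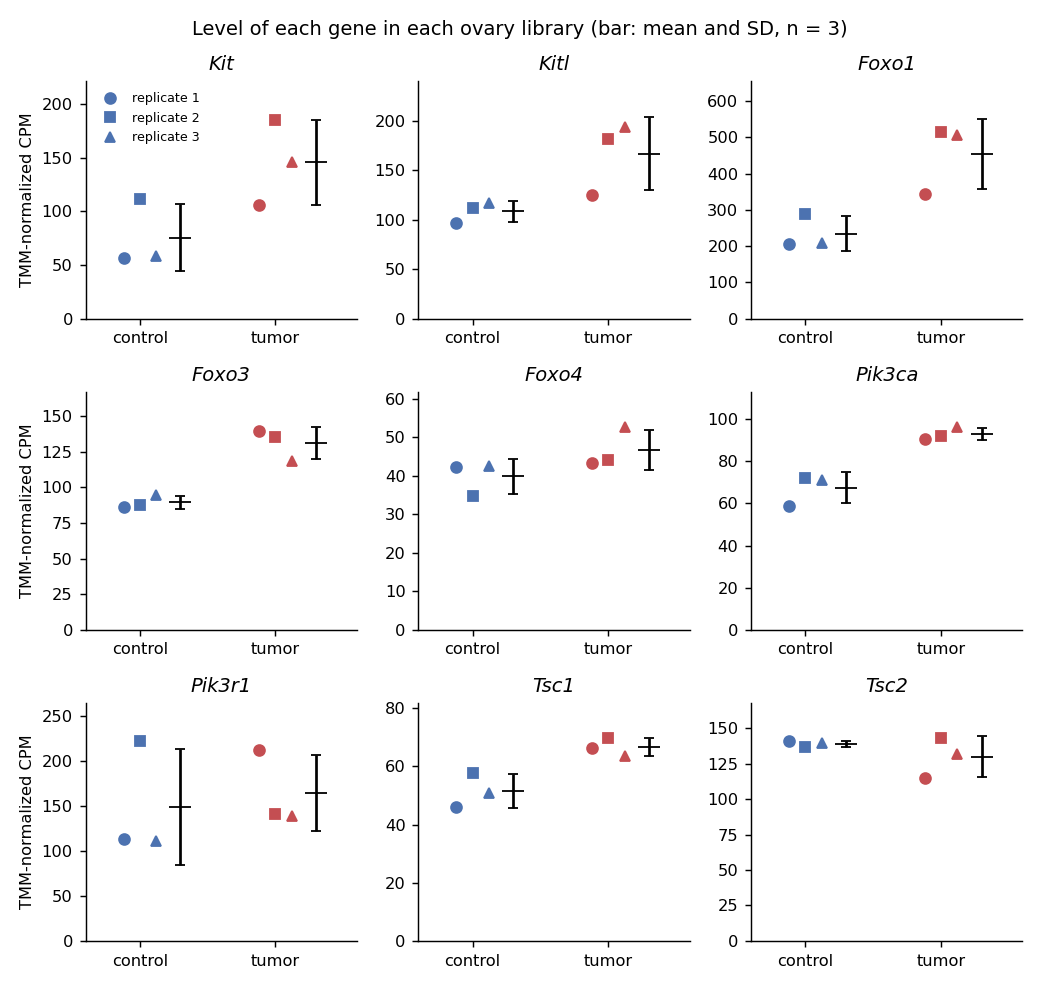
TMM-normalized CPM (linear axis from 0) of each gene in the 3 control and 3 tumor libraries, 1 symbol per library by replicate number, with the mean and SD (n = 3) beside each group. Tumor libraries lie above all controls for Kitl, Foxo1, Foxo3, Foxo4, Pik3ca and Tsc1, and control replicate 2 stands high for Kit and Pik3r1.

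Kitl, the ligand, was measured at 96.8, 112 and 117 CPM in the control libraries and at 125, 182 and 194 CPM in the tumor libraries. Every tumor library was above every control, the closest pair being control replicate 3 and tumor replicate 1. The fitted log2 difference was 0.62 ± 0.18 (SE, n = 3 per group) and did not pass the test (adjusted p = 0.0795). Without tumor replicate 1 it was 0.79 at an adjusted p of 0.0265, and DESeq2 on the same counts gave 0.63 with 0.0125. Kitl passed in none of the other alternatives, of 18 in all. The authors' deposited table gave 0.63 with a q-value of 0.0174.

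Kit, the receptor, was measured at 56.7, 111 and 58.4 CPM in the control libraries and at 106, 185 and 146 CPM in the tumor libraries. Control replicate 2 was above tumor replicate 1, so the groups overlapped. The mean was 75.5 ± 31.1 (SD, n = 3) in control and 146 ± 39.9 in tumor. Its log2 fold change, 0.95 ± 0.34 (SE), was as large as that of Foxo1 but did not pass the test (adjusted p = 0.124). Without control replicate 2 it was 1.38 at an adjusted p of 0.0320, and by DESeq2 0.96 with 0.0183. Kit passed in only these 2 of 18 alternatives, and without tumor replicate 2 it had 0.73 (adjusted p = 0.275). In the authors' deposited table it had a log2 fold change of 0.96 and a q-value of 0.0228.

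The forms of Kitl were estimated from few reads. The form without exon 6 held 44.2%, 62.0% and 51.7% of the Kitl counts in control and 59.8%, 83.0% and 62.3% in tumor. Its share was highest in tumor replicate 2, and the groups overlapped, since control replicate 2 was above tumor replicate 1. The means were 52.6% ± 8.94 (SD, n = 3) and 68.3% ± 12.8, with an exact two-sided permutation p of 0.2, adjusted 0.625 over the 25 transcripts compared. With 3 against 3 libraries this test cannot go below 0.10. Levels of this form were 42.7, 70.3 and 60.8 CPM in control and 77.6, 151 and 121 CPM in tumor, with no overlap. Its log2 fold change was 1.01 ± 0.30 (SE), at an adjusted p of 0.273 over 40228 transcripts by edgeR and 0.0146 by DESeq2. The form with exon 6 was at 53.1, 43.1 and 56.7 CPM in control and at 52.3, 30.0 and 72.5 CPM in tumor. Tumor replicates 2 and 3 were its lowest and highest libraries, and its log2 fold change of 0.02 ± 0.33 had no fixed sign over the alternatives. From the deposited transcript lengths and the reads of 50 bases, between 31.5 and 53.0 reads per library were expected to tell these forms apart.

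The Kit form with the exon 9 extension held 27.1%, 14.8% and 17.3% of the Kit counts in control and 7.22%, 33.0% and 15.8% in tumor. The lowest and the highest share were both in tumor libraries. The difference of means was -1.06 percentage points with an exact permutation p of 0.9, and between 10.7 and 36.0 reads per library were expected to tell the forms apart. The form without the extension accounted for 41.2 to 96.1 CPM in control and 102 to 124 CPM in tumor. It was the higher form in each of the 6 libraries.

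Pik3ca, which encodes the catalytic subunit p110 alpha, rose from 58.9, 72.3 and 71.3 CPM in control to 90.5, 92.3 and 96.3 CPM in tumor. The tumor libraries lay close together and above every control. The log2 fold change was 0.46 ± 0.10 (SE) at an adjusted p of 0.0482, close to the threshold: it was 0.0539 with the size factors of DESeq2 in edgeR and 0.0548 without a filter on low counts. The call was likewise lost without control replicate 1 (0.148; log2 fold change 0.39) or 3 (0.139) and without tumor replicate 2 (0.121) or 3 (0.145). Among 3 forms listed, XM_006535409.4 held 87.8% to 89.8% of the counts in control and 90.9% to 93.2% in tumor. Those shares did not overlap, with an exact permutation p of 0.1 and an adjusted p of 0.5.

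Pik3r1, the regulatory partner, had no fixed direction at the gene level. It was measured at 113, 223 and 111 CPM in control and at 213, 141 and 139 CPM in tumor. Control replicate 2 and tumor replicate 1 were the 2 high libraries and stood well apart from the other 4. The log2 fold change was 0.14 ± 0.33 (SE), at an adjusted p of 0.811. Leaving out control replicate 2 gave 0.60, and leaving out tumor replicate 1 gave -0.087.

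The main forms of Pik3r1 held different shares of its counts in the control and tumor libraries, in a design too small for the test of shares to pass. The long form from the upstream start held 17.2%, 14.6% and 22.1% of the gene's counts in control and 49.6%, 32.7% and 43.5% in tumor. The short form from the downstream start held 79.7%, 81.6% and 74.4% in control and 48.0%, 63.4% and 54.5% in tumor. Neither share overlapped between the groups, and the mean share of the long form was 18% ± 3.80 (SD, n = 3) in control and 41.9% ± 8.53 in tumor. The exact two-sided permutation p was 0.1, the smallest this design allows, and 0.5 after adjustment over the 25 transcripts. Of those 25 transcripts, 5 had shares that did not overlap: both of these, 2 of Pik3ca and 1 of Tsc1. No such percentage was computed for the shares of other genes. For levels in CPM, a different measure, 23.0% of all tested transcripts did not overlap between groups.

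In CPM, the long form was at 19.4, 32.9 and 24.5 in control and at 110, 46.2 and 60.6 in tumor. Tumor replicate 1, with the most adipocyte marker RNA, was by far the highest, and the other 2 tumor libraries were still above every control. The log2 fold change was 1.49 ± 0.39 (SE), at an adjusted p of 0.207 by edgeR and 0.00153 by DESeq2. It was 1.06 without tumor replicate 1, and 0.59 with the adipocyte markers as a covariate, an alternative chosen after seeing the data. The level of these markers itself separated the groups. The short form was at 89.9, 184 and 82.5 CPM in control and at 106, 89.5 and 75.8 CPM in tumor. Only control replicate 2 stood out, and the short form's log2 fold change of -0.39 ± 0.35 was 0.07 without that library. Between 210 and 607 reads per library were expected from the exons that only 1 of these forms has, more than for Kit or Kitl. Over all transcripts edgeR called 0.00746%, or 3 of 40228, and none of these genes. DESeq2 called 10.6% of all transcripts and 5 of theirs: the Kitl form without exon 6, the single forms of Foxo1 and Foxo3, the main Pik3ca form and the Pik3r1 long form.

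**Figure D2:**
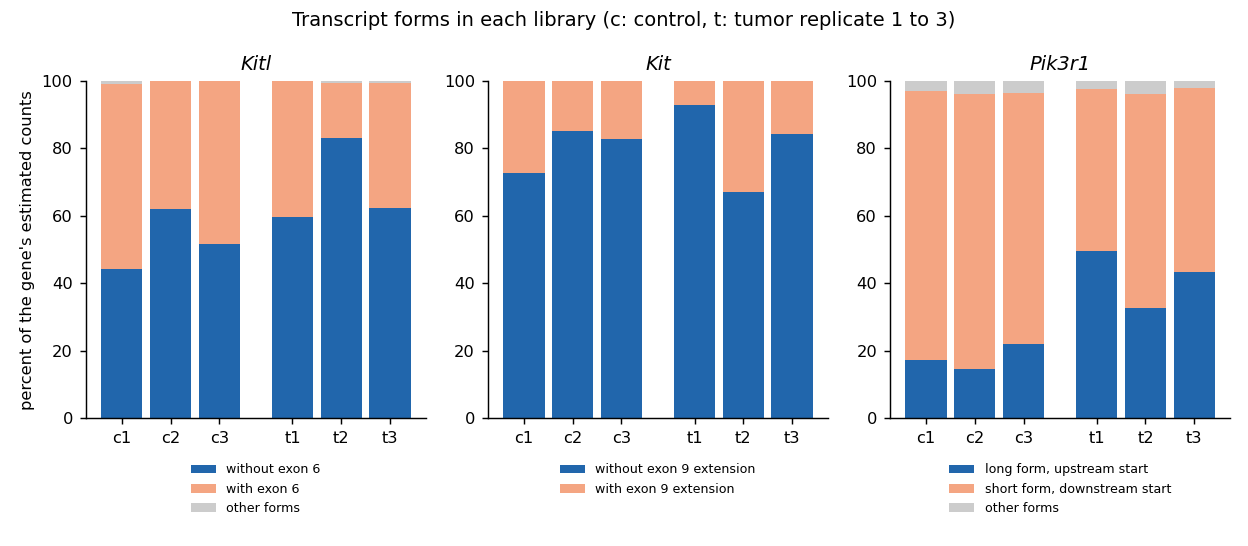
Share of each gene's estimated counts (percent, bars stacked to 100) held by the forms of Kitl, Kit and Pik3r1 in control libraries 1 to 3 (c1 to c3) and tumor libraries 1 to 3 (t1 to t3). The Pik3r1 long form lies between 14.6% and 22.1% in control and between 32.7% and 49.6% in tumor, while the Kitl and Kit shares overlap between groups.

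Foxo1 was the most abundant of the 9 genes per length, with 41.8 ± 9.15 FPKM (SD, n = 3) in control and 84.2 ± 16.3 in tumor. In CPM it was at 207, 290 and 208 in control and at 343, 514 and 507 in tumor. All tumor libraries were above all controls, with tumor replicate 1 the lowest of them and control replicate 2 the highest control. Foxo1 rose by a log2 fold change of 0.95 ± 0.21 (SE; adjusted p = 0.048). Without control replicate 1 or 3 the adjusted p was 0.172 or 0.152, and without tumor replicate 2 or 3 it was 0.123 or 0.142, at log2 fold changes of 0.86 to 0.90. An antisense gene on the opposite strand, Gm20402, covers 674 of its 8665 exonic bases, and whether the counting used strand is not given in the sources used here, so reads from those bases cannot be told apart.

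Foxo3, the factor that holds primordial oocytes at rest, was measured at 86.1, 87.6 and 94.6 CPM in control and at 139, 135 and 119 CPM in tumor. Libraries within a group were close, and the groups were separated by more than the range of either control or tumor libraries. Foxo3 rose by 0.55 ± 0.09 (SE) on the log2 scale (adjusted p = 0.0374), the smallest of the 9. The call ended without control replicate 1 (adjusted p = 0.148) or 3 (0.116) and without tumor replicate 2 (0.0965) or 3 (0.120), while the log2 fold change stayed between 0.53 and 0.63. Only 1 transcript was listed for each of Foxo1 and Foxo3.

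Foxo4, on the X chromosome, was at 42.3, 34.7 and 42.6 CPM in control and at 43.3, 44.2 and 52.8 CPM in tumor. The groups did not overlap, although control replicate 3 and tumor replicate 1 lay within 1 CPM of each other. Its log2 fold change was 0.23 ± 0.13 (SE) at an adjusted p of 0.272, and it passed the test in 0 of 18 alternatives. Without tumor replicate 3 it was 0.13.

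Tsc1 was at 46.2, 57.8 and 50.7 CPM in control and at 66.4, 69.8 and 63.7 CPM in tumor. Every tumor library was above every control. The log2 fold change of 0.37 ± 0.11 (SE) did not pass, at an adjusted p of 0.0771. It was 0.50 at an adjusted p of 0.0327 without control replicate 2, and 0.38 with 0.0360 by DESeq2. Tsc1 passed in none of the other alternatives, of 18 in all.

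Tsc2 was at 141, 137 and 140 CPM in control and at 115, 143 and 131 CPM in tumor. Its control values were the tightest of the 9 genes in CPM, with an SD of 1.93, and the tumor values spread around them. The log2 fold change was -0.10 ± 0.10 (SE) at an adjusted p of 0.556. It was -0.016 without tumor replicate 1 and -0.18 without tumor replicate 2. Tsc2 shares 693 of 9620 exonic bases with Pkd1 on the opposite strand, with the same limit as for Foxo1. Of the 10 forms listed for Tsc1, 9 were at 0 in some library, and of the 24 for Tsc2, 15 were, so forms of these genes were not compared further.

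Ratios within a library do not depend on how libraries are scaled. Tsc1 over Tsc2 in FPKM was 0.249, 0.322 and 0.280 in control and 0.440, 0.370 and 0.367 in tumor. This was the 1 ratio of 5 whose groups did not overlap, and no share over other pairs of genes was computed to set beside it. The log2 difference of Tsc1 over Tsc2 was 0.47, with an exact two-sided permutation p of 0.1 and an adjusted p of 0.375. Kitl over Kit was 1.63, 0.962 and 1.92 in control and 1.13, 0.940 and 1.27 in tumor, overlapping, with a log2 difference of -0.38 and an exact p of 0.3. Foxo1 over Foxo3 lay between 2.75 and 4.14 in control and between 3.07 and 5.35 in tumor (log2 difference 0.40, exact p of 0.2). The log2 differences for Foxo4 over Foxo3 and Pik3ca over Pik3r1 were -0.31 and 0.34, with exact p of 0.3 and 0.5, and adjusted over the 5 ratios no p was under 0.375.

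Per length, the order of mean FPKM in control was Foxo1 41.8, Pik3r1 24.4, Tsc2 23.3, Kitl 19.8, Kit 14.5, Foxo4 12.9, Foxo3 12.7, Pik3ca 9.26 and Tsc1 6.62. Foxo1 was the highest of the 9 in every library, although its control range of 36.1 to 52.3 FPKM met that of Pik3r1, 17.9 to 37.1. Pik3r1 overlapped in range with Tsc2 and Kitl, Kit with Kitl, Foxo4 and Foxo3, and Foxo4 with Foxo3. The order within each of these pairs is not fixed. In tumor, Kitl at 31.8 and Kit at 29.0 FPKM came next after Foxo1 at 84.2, followed by Pik3r1 at 27.0 and Tsc2 at 22.9, and their ranges overlapped too. Foxo3 at 19.5 and Foxo4 at 15.9 FPKM followed, each overlapping its neighbour above, and Pik3ca at 13.4 and Tsc1 at 8.94 were the lowest in both groups.

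Gene length moved with the fold changes in these libraries. When all tested genes were split into 4 equal bins by the length implied by the deposited counts and FPKM, the median log2 fold changes were -0.25, -0.09, 0.04 and 0.23 from the shortest to the longest bin. All the genes described here but Foxo4 are long: 83.1% of tested genes were shorter than Kit, 85.8% shorter than Foxo1, 92.4% shorter than Foxo3, 92.9% shorter than Pik3ca and 94.7% shorter than Tsc1, against 52.2% for Foxo4. With offsets that take out each library's trend with length, the log2 difference of Foxo1 was 0.77 (adjusted p = 0.0879), that of Foxo3 0.30 (0.127), Pik3ca 0.20 (0.193) and Tsc1 0.09 (0.511), and none of the 9 passed. Kit then had 0.79 and Kitl 0.43. With that fit the median of the 9 was 0.24. The cause of this trend was not tested.

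**Figure D3:**
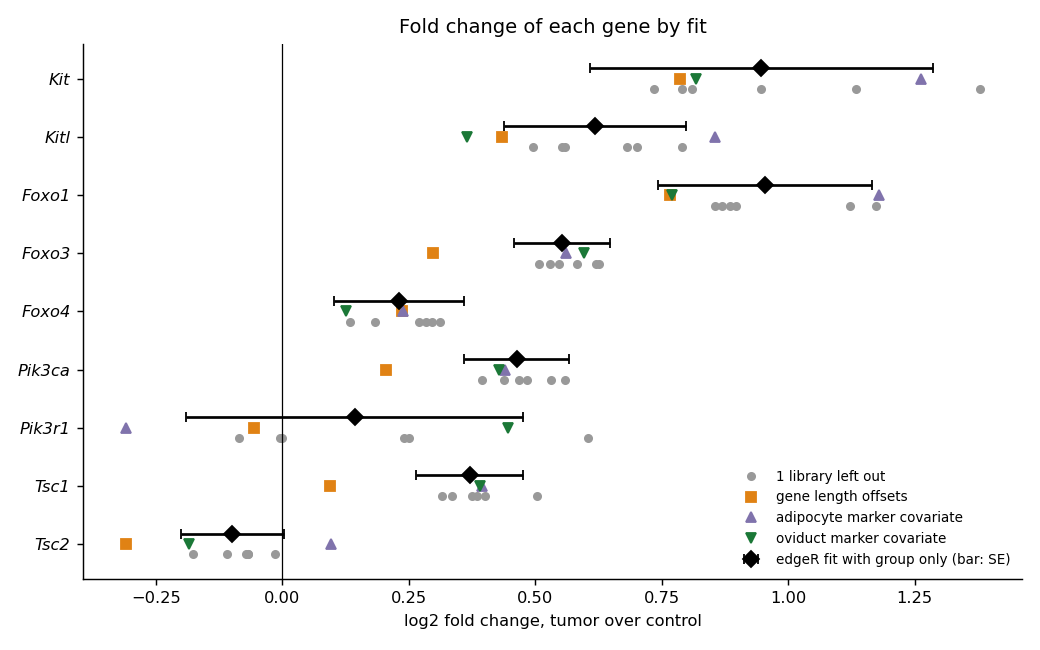
Log2 fold change, tumor over control, of each gene in the edgeR fit with group only (diamond, bar: SE), with gene length offsets, with the adipocyte or oviduct markers as a covariate, and with each library left out in turn (grey). The 7 genes other than Pik3r1 and Tsc2 stay above 0 in each fit shown, and Pik3r1 and Tsc2 take both signs. Kit, Kitl, Foxo1, Foxo3, Pik3ca and Tsc1 move toward 0 with the length offsets.

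Other genes of the same pathway were read from 6 lists, each of 16 to 22 tested genes. In all, 12 genes passed the test and most did not, where 7.71% of all genes tested passed. Counts this small within a list are not read as a result about that list. Between KIT and PI3K, 1 of 20 genes of KIT signaling rose and 1 fell. Sos1, the exchange factor that activates RAS, rose by a log2 fold change of 0.42 ± 0.09 (SE). Dok1, an adaptor that dampens receptor tyrosine kinases, fell from 21.7, 18.1 and 17.1 CPM to 8.83, 9.86 and 8.94 CPM, a log2 fold change of -1.04 ± 0.15 at an adjusted p of 0.0339. The ubiquitin ligase gene Cbl had 0.46 at an adjusted p of 0.0518, and the adaptor gene Crkl 0.43 with 0.0621.

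In the PI3K list 2 of 16 genes rose and none fell, with a median log2 fold change of 0.28, which was 0.02 with length offsets, where 1 gene rose. Phlpp2, a phosphatase that acts on AKT, rose from 28.8, 34.3 and 26.9 CPM to 53.2, 49.8 and 53.4 CPM, a log2 fold change of 0.80 ± 0.11 (SE) at an adjusted p of 0.0331. Pik3cd, the catalytic subunit p110 delta, rose by 0.59 ± 0.12. Pdpk1, the kinase that activates AKT, had 0.63 at an adjusted p of 0.0573, and Irs2, an adaptor of the insulin receptor, 0.48 with 0.0763. In the AKT and mTOR list 1 of 17 rose: Rictor, the defining subunit of mTORC2, with 0.55 ± 0.10 and an adjusted p of 0.0386. Rps6kb1, the S6 kinase gene, had 0.42 (adjusted p = 0.0586) and Mtor 0.28 (0.125), and the median of this list was 0.02.

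Among 19 regulators of FOXO proteins, 2 rose and 2 fell. Sgk1, a kinase that like AKT phosphorylates FOXO factors, had the smallest adjusted p of all pathway genes. It was at 104, 109 and 86.2 CPM in control and at 30.2, 26.9 and 26.9 CPM in tumor, with the 3 tumor libraries nearly equal and far below the controls. Sgk1 fell, and its log2 fold change was -1.83 ± 0.12 (SE; adjusted p = 0.00961), or -1.76 with length offsets (adjusted p = 0.0102). The deacetylase genes went in opposite directions: Sirt1 rose from 28.4, 30.8 and 31.3 to 46.8, 44.9 and 47.0 CPM (log2 fold change 0.62 ± 0.09, SE; adjusted p = 0.0318), while Sirt2 fell, at -0.44 ± 0.10 (adjusted p = 0.0468). Crebbp, an acetyltransferase, rose by 0.76 ± 0.13.

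Of 22 genes listed as transcribed by FOXO factors, 1 rose and 21 did not pass the test. The 22 had a median log2 fold change of -0.0039, beside -0.02 over all genes. Insr, the insulin receptor gene, rose by 0.47 ± 0.10 (SE; adjusted p = 0.0465). With length offsets it had 0.16 and an adjusted p of 0.385. Map1lc3b, an autophagy gene, had -0.34 (adjusted p = 0.0918) and the apoptosis gene Bbc3 -0.87 (0.0932). Of 20 genes listed as regulators of primordial follicles, 2 rose, Bmp15 by 0.99 ± 0.17 and Gdf9 by 0.76 ± 0.15 (SE), with adjusted p of 0.0382 and 0.0396. Both are growth factors of the oocyte and are counted again among the oocyte markers below. Lhx8, an oocyte transcription factor gene, had 0.90 (adjusted p = 0.0900) and Yap1 0.25 (0.109). With length offsets 5 of the 12 genes kept their call: Dok1, Phlpp2, Sgk1, Sirt1 and Gdf9. Without control replicate 3 only Sgk1 passed, and none of the 12 passed without control replicate 1 or without tumor replicate 2 or 3.

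**Figure D4:**
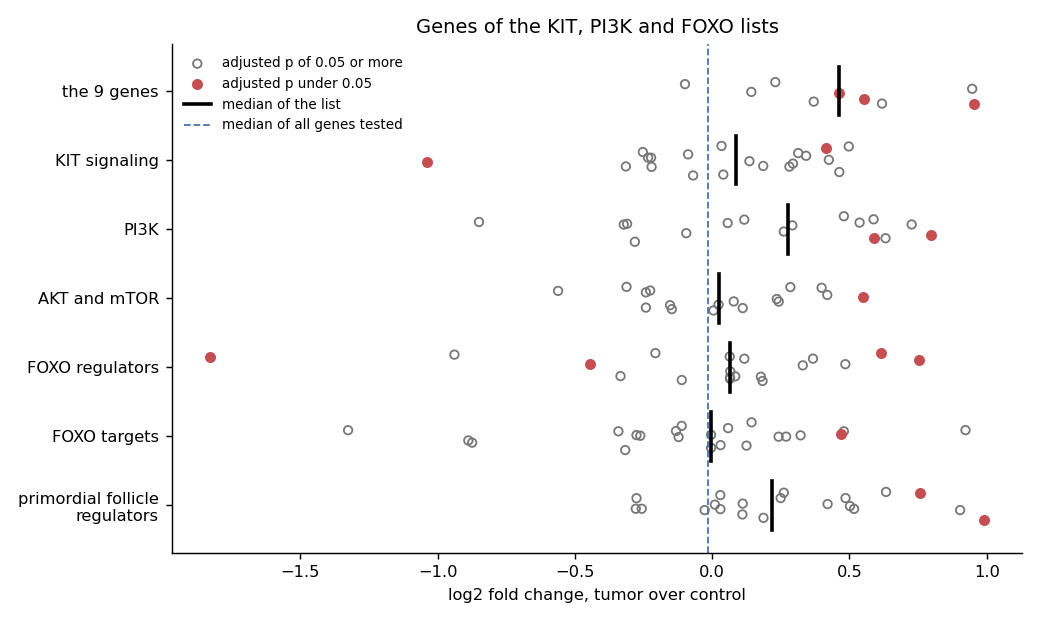
Log2 fold change, tumor over control, of the 9 genes and of each tested gene of the 6 pathway lists (1 point per gene; filled where the adjusted p was under 0.05; black bar: median of the list; dashed line: median of all genes tested). The 9 genes have a median of 0.46, the PI3K list 0.28 (0.02 with length offsets) and the FOXO targets -0.0039, and Sgk1 is the lowest point at -1.83.

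Markers of the cells that express these genes differed between the groups as well. Of 15 oocyte markers, 8 rose, none fell and all 15 had positive fold changes, where 3.80% of all genes tested rose and 3.91% fell. Their summed levels were 404 to 546 CPM in control and 671 to 852 CPM in tumor. Foxo3 was also higher in every tumor library than in every control, as were 19.8% of all genes tested. Tumor replicate 1 was the highest for both. Tumor replicates 2 and 3 came in opposite order, at 671 and 754 CPM for the marker sum and 135 and 119 CPM for Foxo3. Of 10 granulosa markers 1 rose, and their sums overlapped, at 4434 to 5037 CPM in control and 3749 to 6380 CPM in tumor. Tumor replicate 1 had the lowest granulosa sum of the 6 and was also the lowest tumor library for Foxo1 and Kitl. Both genes were higher in it than in every control, and the part of granulosa cells in their levels was not tested. Theca and luteal markers, of which 2 rose and 2 fell, summed to 14914 to 16378 CPM in control and 2758 to 10736 CPM in tumor. These sums hide differences between libraries of a group. Cyp17a1, a marker of this list, was at 14.3, 2669 and 22.1 CPM in control and at 37.5, 1533 and 2273 CPM in tumor. All 6 smooth muscle markers were lower in every tumor library than in every control, where 38.1% of all genes tested did not overlap in either direction. Their sums were 2546 to 2875 CPM in control and 1323 to 2129 CPM in tumor, and Des, Cnn1 and Tagln, 3 of the 6, fell. Without control replicate 1 or 3, or without tumor replicate 2 or 3, no marker of these 4 lists passed the test. Without control replicate 2 the oocyte markers that rose numbered 5 and the granulosa markers 2, and without tumor replicate 1 they numbered 8 and 3. In whole ovaries, fewer cells of a type and less RNA per cell cannot be told apart. The part of cell makeup in the changes of Foxo1, Foxo3 and Pik3ca was not tested beyond fits with marker levels as a covariate. With the oviduct markers, Foxo3 kept its call (0.60; adjusted p = 0.0235), Foxo1 had 0.77 (0.0587) and Pik3ca 0.43 (0.0527). With the adipocyte markers Foxo1 had 1.18 and Foxo3 0.56, each at an adjusted p of 0.297, and Pik3ca had 0.44 (0.320). The adipocyte marker level itself separated the groups narrowly, with a mean log2 CPM of 5.13 to 5.64 in control and 5.67 to 8.54 in tumor. This fit therefore cannot fully part marker level from group. With the oocyte markers, whose levels separate the groups, Foxo3 had 0.32, Pik3ca 0.22 and Foxo1 1.66, and the adjusted p of each was 0.999.

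Mast cells and melanocytes also carry KIT. Of 9 mast cell markers 8 were in the table and 5 were tested, and none passed. Cpa3, a mast cell protease gene, was at 5.13, 4.87 and 3.45 CPM in control and at 2.55, 1.39 and 0.818 CPM in tumor. The other mast cell markers in the table, Hdc apart, lay under 10 CPM in all 6 libraries. Hdc made up most of the summed mast cell markers, at 50.1 to 136 CPM in control and 13.6 to 144 CPM in tumor, with control replicate 2 and tumor replicate 1 the highest. The melanocyte list held 6 markers, of which 3 were tested and none passed. Mitf had 10.2 to 15.4 CPM in control and 18 to 25.6 CPM in tumor. Pmel went the other way, with a log2 fold change of -0.61. It had 0.749 to 1.84 CPM in control and 0.64 to 0.883 CPM in tumor. The pigment genes Tyr, Tyrp1 and Dct lay under 2 CPM in all 6 libraries, as did Mlana. The part of mast cells or melanocytes in the level of Kit was not tested.

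For 4 of the genes, those with the most similar pattern over the 6 libraries were taken by the root mean square difference of centred log2 CPM, a measure that reads the group difference as well and carries no test. Nearest to Kit were Bmp2 (0.07), Colgalt2 (0.13) and Prss23 (0.13). Nearest to Kitl were Tbc1d24 (0.07), Tmem215 (0.07) and Ptcra (0.08), the last 2 at low levels of 1.92 and 0.573 CPM in control. Nearest to Foxo1 were Zfp711 (0.06), Ddah1 (0.07) and Rgs6 (0.08), and nearest to Foxo3 were Tcf7l2 (0.04), Ak4 (0.05) and Lrig2 (0.05). For scale, the SD of log2 CPM over the 6 libraries was 0.69 for Kit, 0.40 for Kitl, 0.59 for Foxo1 and 0.31 for Foxo3.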

How the data were processed

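Ovary RNA was isolated by Trizol, and an MGIseq500 instrument read 50 bases from 1 end, per the labels' protocols. RSEM 1.2.12, Bowtie2 2.2.5, HISAT2 2.0.4 and the build GRCm38.p6 are named, without roles, per the submitters' processing notes. The authors deposited estimated counts, FPKM and TPM per gene and transcript and library, per the file headers, and a table of log2 fold changes with p-values and q-values from their own comparison; TPM entered no test. Of the estimated counts above 0, 39.2% were not whole numbers (tolerance 0.001), and all were rounded. Values in 18 further per-sample columns, counted over all samples, were not used. A count of 3, the limit that a count of 0 allows, was 0.156 to 0.164 CPM, for counting error only. No 2 libraries agreed within sampling noise, with a chi-square per degree of freedom of at least 13.1.

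Genes (15787) and transcripts (40228) kept by filterByExpr were fitted with edgeR 4.0.16 (R 4.3.3; TMM, robust quasi-likelihood, group only, two-sided), with standard errors taken as the log2 fold change over the square root of F. Shares were estimated counts over the gene's sum, for transcripts with a mean share of 5% to 95%. On simulated counts for 15621 genes, the tumor against control fit recovered 40.2% of 97 genes with a simulated fold of 2 and 65% of 100 with a fold of 4. Alternatives were DESeq2 1.42.0, other scaling and filters, limma 3.58.1 on log2(FPKM + 1) and log2(FPKM + 0.1), length offsets, marker covariates, a replicate block and leaving out each library. The 9 genes, the lists and the named forms were chosen with earlier results of these data known; up to 4 genes with the smallest p were named per list, and for 4 genes the 3 nearest by pattern, skipping predicted genes; 1 gene that the rule names is not reported here. Cpa3, Hdc, Mitf, Tyr, Tyrp1, Dct, Pmel, Mlana, Des, Cnn1, Tagln, Cyp17a1 and the forms were named after their values were seen. Exon sequences are from GENCODE M21. Protein sequences were not used here.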

Additional observations from a re-analysis of the deposited data

How the results depend on the processing

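Depth and n limit these results: 3 libraries a group, 31.5 to 53.0 reads to tell Kitl forms apart, and adjusted p near the threshold for Foxo1 and Pik3ca. Of 18 alternatives, Foxo1 passed in 8, Foxo3 in 9, Pik3ca in 6, Kit, Kitl and Tsc1 in 2 each and Foxo4, Pik3r1 and Tsc2 in 0; the sign held in all of them except for Pik3r1 and Tsc2. The causes were not tested. Against 1217 genes, 3 of the 9 genes and 12 list genes passing, DESeq2 gave 3012, 6 and 23, length offsets 358, 0 and 5, and the oviduct covariate 2417, 1 and 19. The adipocyte and oocyte covariates each gave 0, 0 and 0 (2393 and 239 genes had unadjusted p under 0.05). Each of these covariates itself separates the groups. The oocyte covariate, which holds Gdf9 and Bmp15, turned Gdf9 to -0.058, Insr to -0.015, Lhx8 to -0.30, Pik3r1 to -0.090 and Tsc2 to 0.18. Leaving out 1 library gave 0 to 2605 genes, 0 to 5 of the 9 and 0 to 20 list genes: none of the 9 passed without control replicate 1 or 3 or tumor replicate 2 or 3, 5 without control replicate 2 and 4 without tumor replicate 1, all of those higher in tumor.

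Transcripts passing numbered 3 by edgeR, with 4725 at an unadjusted p under 0.05, and 4277 by DESeq2; they were 0 without any 1 library and 0 with the adipocyte or the oviduct covariate, both chosen after seeing the data. Of the transcripts of the 9 genes, 0 passed by edgeR and 5 by DESeq2. Shares that did not overlap numbered 5, and 6 to 9 with 1 library left out; ratios numbered 1, and 1 to 3. Pik3r1 was -0.057 with length offsets, -0.31 with the adipocyte covariate and -0.087 to 0.60 with 1 library left out; Tsc2 was 0.10 with the adipocyte covariate. The Kitl form with exon 6 was -0.011 without a filter, -0.67 and -0.10 with the adipocyte and oviduct covariates and -0.34 to 0.29 with 1 library left out, and the Pik3r1 short form -0.61 to 0.067.

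Same-numbered libraries correlated at 0.24, -0.21 and 0.53 in their deviations from the group means, and not every library correlated best with its own number. With 3 libraries a group, whose deviations sum to 0, these correlations cannot settle whether the numbers mark pairs. With the replicate block 0 genes, 0 of the 9, 0 list genes and 0 transcripts passed, with 4233 genes at an unadjusted p under 0.05, and with length offsets added 0, 0 and 0, with 3401; the Kitl form with exon 6 was then -0.063 and Pik3r1 with both -0.019. All 3 same-numbered differences had 1 sign for 10 of 25 shares and 3 of 5 ratios.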
